A study of Drosophila melanogaster with 12 samples.

Results

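The distal part of chromosome arm 2L of the fruit fly Drosophila melanogaster was described through the chromatin immunoprecipitation (ChIP-seq) peaks of 2 linker histones. All peaks on 2L with a midpoint below 14 Mb (genome build dm3) were taken, which gave 1640 of the 19365 peaks in 8 peak lists. The highest peak end on 2L in any list lay at 22977088, so the 14 Mb make up 60.9% of that length. The cells were S2 cells, an established line from late embryos. In control cells, labelled wt, and in cells labelled as induced with 1 mM to express wt BigH1, 2 libraries each were made with a polyclonal antibody against dBigH1 and 2 with one against H1. The treatment protocol, worded the same for every sample, gives copper sulphate for 24 h, so the labels do not settle whether control cells also received it. The growth protocol names dBigH1::FLAG lines kept under hygromycin, without saying which samples they gave. The labels do not say whether the induced cells are a single clone, nor whether replicates came from separate cultures. Spread between replicates may therefore be technical. The 4 input libraries were not analysed here.

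Linker histones bind the nucleosome where DNA enters and leaves it and help to compact chromatin. H1 is the linker histone of somatic fly cells, and dBigH1 takes its place in the early embryo and the germline. Coordinates on 2L run from the telomere towards the centromere, so distal means nearer to 0. A peak is a stretch in which the authors' peak caller, MACS, found more reads than in the background, and its score is the caller's value, 10 times the negative log10 of its p-value. The lists hold no read counts, so depth is unknown, and fewer peaks can come from lower depth as well as from less protein. No gene or sequence is named, because the gene table used here follows another genome release and no genome of the build of the lists was used.

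The H1 lists divided the 14 Mb into an H1-poor outer part and an H1-rich inner part, with nearly the same layout in control and induced cells. In the inner 5 Mb, from 9 to 14 Mb, H1 peaks numbered 268 and 346 in control and 263 and 352 in induced cells. Between 2.25 and 8 Mb, over 5.75 Mb, the same lists held 6, 10, 6 and 11. The outermost 2.25 Mb were intermediate, with 37 and 56 control and 41 and 48 induced H1 peaks. In the Mb from 8 to 9, 9 and 10 control and 9 and 4 induced H1 peaks formed the passage to the H1-rich part. H1 peak rates per Mb thus ran from 1.04 to 1.91 in the poor stretch and from 52.6 to 70.4 in the inner part.

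**Figure D1:**
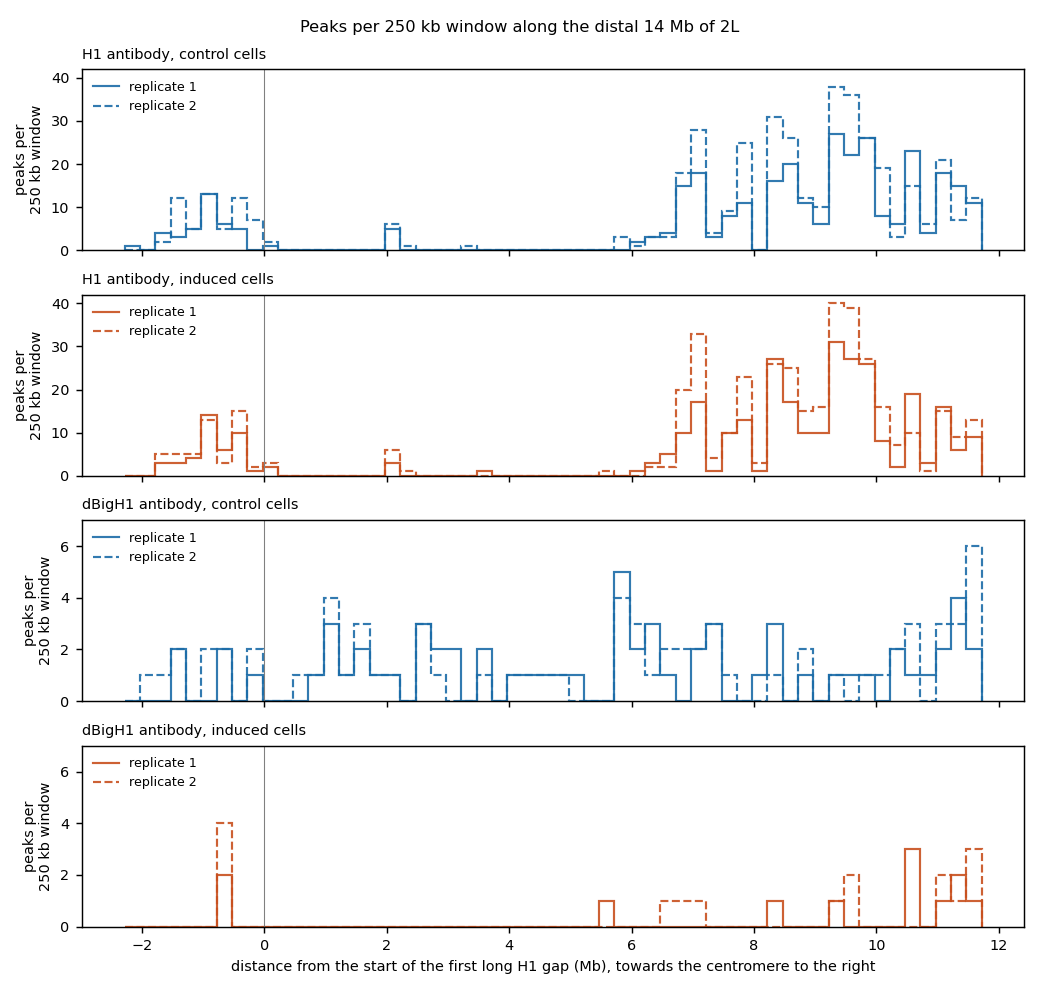
Peaks per 250 kb window (y axis, number of peaks) against distance in Mb from the start of the first long H1 gap (x axis, centromere to the right), with the H1 antibody in the upper panels and the dBigH1 antibody in the lower ones, control in blue, induced in orange and replicate 2 dashed. All 4 H1 lists are nearly empty between 0 and 6 Mb of this axis and reach their maximum of 27 to 40 peaks in the same window, whereas control dBigH1 peaks occur throughout and induced ones almost only where H1 peaks are found.

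Each of the 56 windows of 250 kb was classed from the 4 H1 lists alone. A window with 1 H1 peak or fewer in every H1 list was called H1-empty, and one with 10 or more in every H1 list H1-dense. This gave 23 H1-empty windows (5.75 Mb), 12 H1-dense windows (3 Mb) and 21 intermediate windows (5.25 Mb). No H1 list held any peak in 18 of the windows. Over 2L, 2R, 3L, 3R and X together, 33.3% of windows were H1-empty and 21.7% H1-dense, against 41.1% and 21.4% here. Because H1 chose the classes, the H1 values in them are a description.

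H1-empty windows formed 3 runs, from 0 to 0.5 Mb, from 2.5 to 4.25 Mb and from 4.5 to 8 Mb. The first H1-dense window lay at 1.25 to 1.5 Mb, where the H1 lists held 13, 13, 14 and 13 peaks (control 1 and 2, induced 1 and 2, the order used for all lists of 4 values). The other 11 H1-dense windows all lay between 9 and 13.5 Mb. The densest was 11.5 to 11.75 Mb in every H1 list, with 27, 38, 31 and 40 peaks. Near the limits of the classes, the window at 13.75 to 14 Mb held 11, 12, 9 and 13 H1 peaks and missed the dense class by 1 peak in 1 list, and the window at 9.75 to 10 Mb held 8, 9, 10 and 10. The window at 2.25 to 2.5 Mb, with 1, 2, 2 and 3, fell just outside the empty class.

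The H1-dense windows carried 220, 289, 227 and 286 H1 peaks, which was 68.5% to 71.2% of each list's peaks of the 14 Mb, on 21.4% of the windows. H1 peaks covered 19.2% and 26.1% of the dense windows in control and 20.2% and 26.5% in induced cells. The cover of H1-empty windows was 0.0321% to 0.0795%. In dense windows 75% and 58.1% of control and 78.4% and 59.1% of induced H1 peaks overlapped a peak of the other replicate. In intermediate windows the shares were lower in each list, at 52.5%, 41.2%, 57.1% and 42.5%. Median H1 peak width differed little between dense and intermediate windows, at 2159 to 2308 bp against 2289 to 2452 bp.

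The conditions differed less in H1 than the replicates did. H1 peaks in the 14 Mb numbered 320 and 422 in control and 319 and 415 in induced cells (371 ± 72.1 and 367 ± 67.9, SD, n = 2). The log2 ratio of induced to control was -0.01 (exact two-sided permutation p = 0.667). With 2 libraries against 2 such an exact permutation test has 6 arrangements and cannot go below p = 0.333. Covered length was 924 and 1165 kb in control and 862 and 1165 kb in induced cells (log2 ratio -0.05, exact permutation p = 1). Over the 56 windows, Pearson's r between pairs of H1 lists ran from 0.896 to 0.971, and the lowest and highest values were both pairs of 1 control and 1 induced list. Neighbouring windows are not independent, so this describes the lists only.

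Few windows set the conditions apart. Both induced H1 lists exceeded both control lists in 2 of the 56 windows (background over the large arms 3.16%) and lay below both in 2 (background 8.42%), so each share, 3.57%, was near or below its background. One was the sparse window at 10.25 to 10.5 Mb, with 0 H1 peaks in either control list and 1 and 3 in the induced lists. Both induced lists held a peak there at 10349367 to 10350905 and 10349399 to 10350919 (scores 56.6 and 76.4), inside a gap of 365 and 347 kb in the control lists. The others held 8, 9, 10 and 10 peaks (9.75 to 10 Mb), 4, 6, 3 and 1 (13 to 13.25 Mb) and 18, 21, 16 and 15 (13.25 to 13.5 Mb).

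Borders were next read to the base pair, as the edges of gaps of 250 kb or more between successive H1 peaks of a list. Such gaps took up 7.51 and 6.90 Mb in control and 6.73 and 6.97 Mb in induced cells (log2 ratio -0.07, exact permutation p = 0.667). The first long gap was nearly the same in all 4 lists. It began at 2274999 and 2271248 in control and at 2277995 and 2264345 in induced cells, a range of 13.7 kb. The border of the first control list rests on 1 isolated peak at 2272934 to 2274999 (score 68.8), without which it lay at 1863990. The gap ended at 4411037 and 4404713 in control and at 4411124 and 4411175 in induced cells, a range of 6.46 kb. The 2.13 Mb that all lists left free of H1 ran from 2277996 to 4404713. Its end lay further in by 3.27 kb on average in induced cells, without overlap of the groups (exact permutation p = 0.333, adjusted p = 1 over 12 borders), which was less than the 6.32 kb between the control replicates. When the longer H1 lists were cut to the length of the shortest, that difference turned to -8.27 kb. With scores of 100 or more it was 64.35 kb. The difference at the start of the gap was then -58.1 kb, against -1.95 kb with all peaks.

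A small H1 island followed the first long gap. In the window at 4.25 to 4.5 Mb the lists held 5, 6, 3 and 6 H1 peaks, and this window was the only one between 2.5 and 8 Mb that was not H1-empty. The highest H1 score of the island was 79.9 and 185 in control and 82.7 and 161 in induced cells. The island ended in replicate 1 of both conditions at 4441286 and 4440189. In replicate 2 a lone further peak moved its end to 4613650 in control and 4680066 in induced cells, so the distal border of the second gap differed by replicate number and not by condition.

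The second long gap opened into the H1-rich part less sharply than the first one opened into the small island. Its last 250 kb gap ended at 8472921 and 8147494 in control and at 8335447 and 8504940 in induced cells, a range of 357 kb (exact permutation p = 0.667), much wider than the 6.46 kb at the end of the first long gap. With isolated peaks left out, the start of the first long gap had a wider range still, 414 kb. The H1 peaks at the end of the second long gap were weak, with scores of 56.4, 52.4, 50.6 and 85.4. Those at the first long gap were also low, at 68.8, 72.1, 59.5 and 59.7 at its start and 79.9, 52.1, 72.4 and 85.95 at its end. Single peaks interrupted the gap in 3 lists, at 5577838 to 5579047 in the second control list, 5901770 to 5904749 in the first induced list and 7900709 to 7903225 in the second induced list. Each had a score below 70 and lay at least 244 kb from any H1 peak of the other lists. Counting these interruptions, 6 stretches without H1 were common to all 4 lists, and leaving out isolated peaks (a choice made after seeing the data) joined them into 3. In each list the windows rose from 5 H1 peaks or fewer at 8.75 to 9 Mb (4, 3, 5 and 2) to 15, 18, 10 and 20 at 9 to 9.25 Mb.

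The gap at the tip was the border at which the conditions lay furthest apart relative to their spread. It ended at 614597 and 623670 in control and at 707887 and 710316 in induced cells, 90.0 kb further in (exact permutation p = 0.333; 1 after adjustment over the 12 borders). The difference rests on very few peaks. The control lists held 2 and 1 H1 peaks between 0.6 and 0.7 Mb and the induced lists none, whereas all lists had 4 to 8 between 0.7 and 0.8 Mb. The control peaks lay at 614598 to 616696 and 623694 to 626576 in replicate 1 (scores 65.9 and 166) and at 623671 to 625657 in replicate 2 (66.8). With H1 lists of equal length the difference was 35.8 kb, with a score of 100 or more 23.9 kb, and in both settings the exact permutation p was 1.

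**Figure D2:**
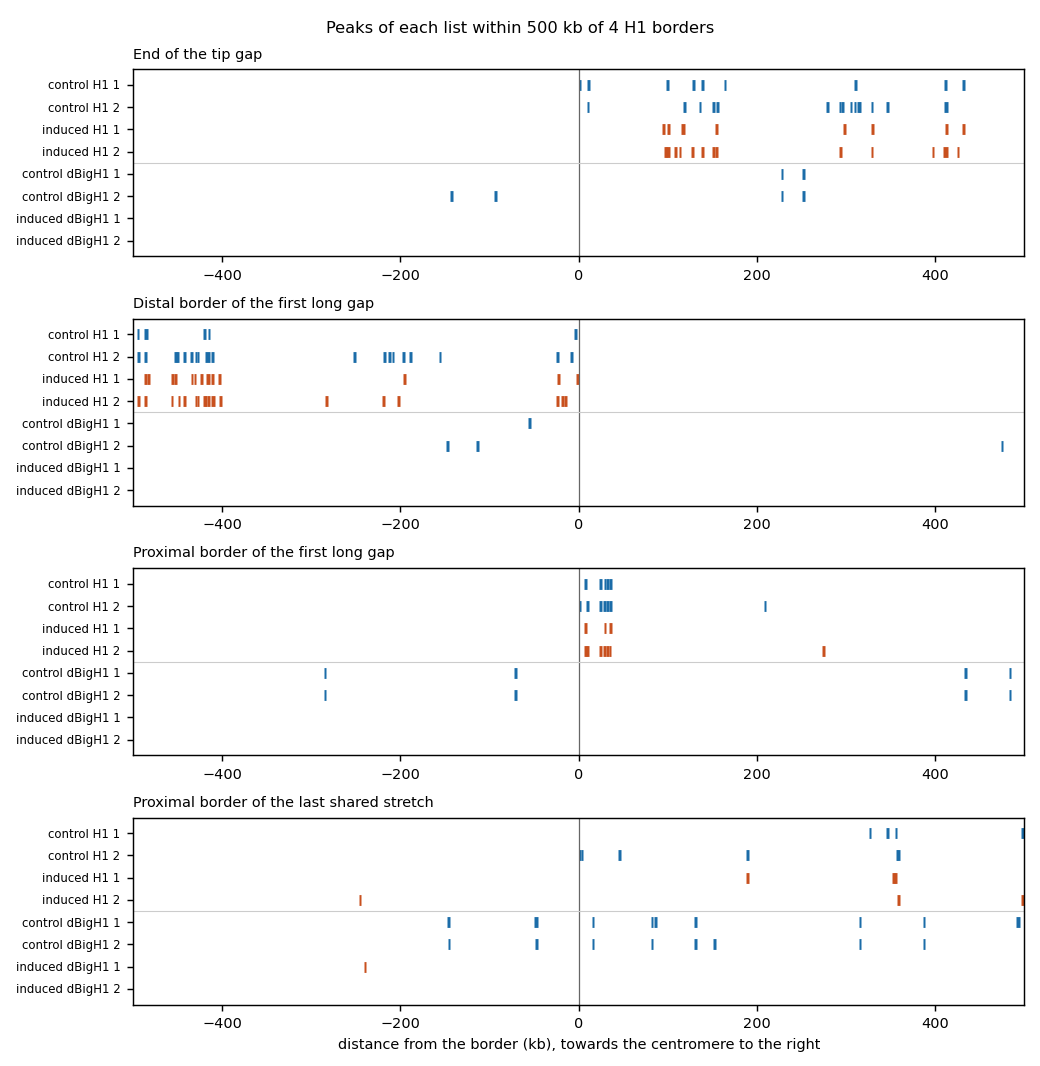
Peaks of each list (rows, H1 above the grey line and dBigH1 below it, control in blue and induced in orange) within 500 kb of 4 H1 borders, against the distance in kb from the border position common to all H1 lists (x axis, centromere to the right). Peaks are drawn to scale but at least 3 kb wide. The H1 lists step within 13.7 kb and 6.46 kb at the ends of the first long gap, and over 357 kb at the last border. Without 1 isolated peak of the first control list the range at the start of the first long gap is 414 kb. Control dBigH1 peaks stand on both sides of the last border.

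The dBigH1 peaks differed between conditions far more than the H1 peaks did. Control lists held 64 and 72 dBigH1 peaks in the 14 Mb and induced lists 12 and 16 (68 ± 5.66 and 14 ± 2.83, SD, n = 2), 4.90-fold fewer in induced cells. The groups did not overlap (log2 ratio -2.29, exact permutation p = 0.333). The complete dBigH1 lists were also shorter in induced cells, with 196 and 238 peaks against 599 and 719 in control cells. With lists cut to equal length the log2 ratio for the 14 Mb was -1. With scores of 100 or more, which left 1 peak in each induced list here, it was -5.00. Both were still without overlap of the groups. Covered length was 120 and 136 kb against 39.6 and 54.9 kb (log2 ratio -1.45, exact permutation p = 0.333). This log2 ratio was -0.27 with lists of equal length and -4.17 with scores of 100 or more. Induced peaks were broader, with medians of 3030 and 2838 bp against 1591 and 1672 bp, a difference of 1303 bp (exact permutation p = 0.333). With scores of 100 or more it was 2258 bp, where each induced value is the width of 1 peak. Induced peaks also had lower scores, at medians of 66.2 and 64.0 against 102 and 90.7. The 14 Mb held 10.7% and 10.0% of the control dBigH1 lists but 6.12% and 6.72% of the induced ones, a difference of -3.93 percentage points (exact permutation p = 0.333) that was -8.26 points with scores of 100 or more. Of the H1 lists they held between 8.01% and 9.0%.

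As a ratio, the conditions lay furthest apart in dBigH1 in H1-empty windows. As a difference in rate, intermediate windows came first, at -4.76 peaks per Mb (induced minus control), against -3.65 in H1-empty and -2.67 in H1-dense windows. In H1-empty windows control cells had 22 and 21 dBigH1 peaks and induced cells 1 and 0. In intermediate windows the numbers were 30 and 34 against 5 and 9, and in H1-dense windows 12 and 17 against 6 and 7. Per Mb, control lists gave 3.83 and 3.65 in H1-empty windows and 4 and 5.67 in H1-dense windows. Induced lists gave 0.174 and 0 in H1-empty windows, where 0 peaks allow up to 0.522 per Mb, and 2 and 2.33 in H1-dense windows. The share of a library's dBigH1 peaks in H1-empty windows was 34.4% and 29.2% in control cells (95% Clopper-Pearson intervals 23.0 to 47.3 and 19.1 to 41.1) and 8.33% and 0% in induced cells (0.211 to 38.5 and 0 to 20.6). The mean difference was -27.6 percentage points (exact permutation p = 0.333), and the groups did not overlap. It stayed between -50 and -26.1 points in every alternative tried.

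The share in H1-dense windows moved the other way. It was 18.8% and 23.6% in control and 50% and 43.8% in induced cells, a difference of 25.7 points (exact permutation p = 0.333). With scores of 100 or more, which left 1 peak in each induced list, it was 47.1 points and the groups overlapped (exact permutation p = 1). It was 10.2 points with overlapping groups when the windows were shifted along the arm (exact permutation p = 0.667), 10.2 points with close peaks joined, 12.2 points with windows of 500 kb, and 9.81 points when a dense window needed 20 H1 peaks. Summed over both lists, control dBigH1 peaks were 0.774 times as frequent per Mb in H1-empty as in H1-dense windows (95% interval 0.472 to 1.29, counting error only). In induced cells the ratio was 0.0401 (0.000944 to 0.267), from 1 peak against 13. Control over induced peaks came to 43 to 1 in H1-empty windows, a ratio of 43 with an interval of 7.32 to 1737. It was 4.57 (2.54 to 8.83) in intermediate and 2.23 (1.12 to 4.68) in H1-dense windows. In these sums a place found in both lists of a condition is counted in each. In H1-empty windows 16 of 22 and 16 of 21 control peaks overlapped a peak of the other control list. The summed counts are therefore not independent, and their intervals are too narrow. Taken window by window, both induced lists held fewer dBigH1 peaks than both control lists in 24 of 56 windows (42.9%; background 41.5%) and more in 0 of 56 (background 2.95%). The share with fewer was thus near its background. The 24 comprised 12 of the 23 H1-empty, 9 of the 21 intermediate and 3 of the 12 H1-dense windows. No background was taken by class, and the split was not tested.

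**Figure D3:**
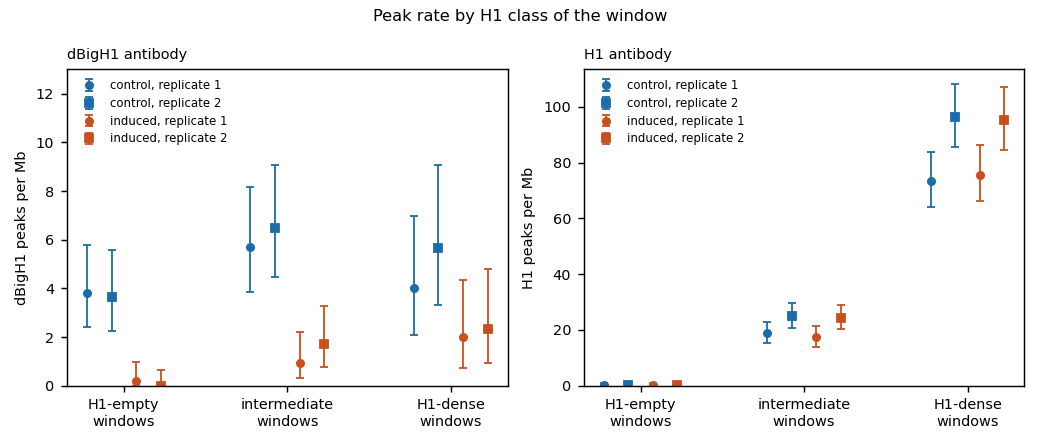
Peaks per Mb (y axis) in H1-empty, intermediate and H1-dense windows for each library of the dBigH1 antibody (left) and the H1 antibody (right), control in blue and induced in orange; bars are exact 95% Poisson intervals, which cover counting error only and which for 0 peaks reach 0.642 per Mb, above the limit of 3 peaks used in the text. Control dBigH1 rates lie between 3.65 and 6.48 per Mb in all 3 classes, and induced rates between 0 and 2.33, lowest in H1-empty windows; the H1 rates differ between classes because H1 chose them.

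The long gaps give these numbers without any windows. In the first long gap control cells had 9 and 12 dBigH1 peaks (4.23 and 5.64 per Mb) and induced cells 0 and 0, which allows up to 1.41 per Mb. In the second, taken from 4680067 to 8147494, which all lists left free of H1 apart from the isolated peaks, control cells had 16 and 11 and induced cells 1 and 0. Control dBigH1 peaks in these gaps recurred between replicates. All 9 peaks of the first list and 9 of 12 of the second in the first gap overlapped a peak of the other control list, as did 10 of 16 and 10 of 11 in the second gap.

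Recurrence of control dBigH1 peaks had its highest values in H1-empty windows. There 72.7% and 76.2% overlapped a peak of the other control list (95% intervals 49.8 to 89.3 and 52.8 to 91.8), in intermediate windows 56.7% and 50%, and in H1-dense windows 41.7% and 29.4% (15.2 to 72.3 and 10.3 to 55.96). Control peaks in H1-empty windows had median widths of 1148 and 1110 bp against 1803 and 1813 bp in H1-dense windows. A score of 100 or more was reached by 63.6% and 61.9% of control peaks in H1-empty windows and by 58.3% and 17.6% in H1-dense windows, so the second list showed a difference that the first did not. These comparisons are within lists, with 2 lists each, and were not tested. Control peaks in H1-empty windows lay a median of 952 and 633 kb from the nearest H1 peak of their own replicate, and those in H1-dense windows 13.5 and 3.6 kb. This contrast follows in part from the classes, which were chosen by H1.

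Of 119 merged dBigH1 regions in the 14 Mb, 37 (31.1%) were held by both control lists and no induced list, against a background of 27.2% over all chromosomes. They lay in H1-empty windows in 16 cases, in intermediate windows in 16 and in H1-dense windows in 5. These 16 made up 57.1% of the 28 regions in H1-empty windows (95% interval 37.2 to 75.5), against 13.9% of the 36 in H1-dense windows (4.67 to 29.5). The 5 that ranked highest all lay inside the long H1 gaps. They were 6612169 to 6613312 (scores 710 and 849), 3300953 to 3303023 (640 and 886), 3631896 to 3633392 (661 and 731), 4887007 to 4888701 (421 and 605) and 6786595 to 6788709 (413 and 641). Each was 1144 to 2115 bp wide. The first lay 1860 and 1033 kb from the nearest control H1 peaks, and all 5 were at least 207 kb from any H1 peak and at least 1118 kb from any induced dBigH1 peak.

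The outer edge of the H1-rich part held more control dBigH1 peaks per Mb than the stretches on either side. Between 8 and 9 Mb control lists held 11 and 10 peaks, or 11 and 10 per Mb, and induced lists 0 and 1. Control rates were 4 and 3.65 per Mb in the H1-poor stretch and 5 and 6.2 in the inner part. The rest of 2L, from 14 Mb inward, had 9.47 and 13.9 per Mb in control cells. Such rates were therefore not particular to this edge. The 95% counting intervals for 8 to 9 Mb were 5.49 to 19.7 and 4.80 to 18.4 per Mb in control cells. The 0 peaks of the first induced list allow up to 3 per Mb, and the 1 peak of the second has an interval of 0.0253 to 5.57. The window at 8 to 8.25 Mb alone had 5 and 4, the most of any window in the first control list, while its H1 counts were 0, 3, 0 and 0. The most in the second control list, 6, lay at 13.75 to 14 Mb. Within 0.5 Mb of the common border at 8147494, control dBigH1 peaks numbered 2 and 2 on the gap side and 7 and 6 on the other side. At the ends of the first long gap the control numbers within 0.5 Mb were 0 and 1 inside against 1 and 2 outside (distal end), and 2 and 2 on both sides (proximal end). Induced cells had none in the 2 Mb made up by both sides of these first 2 borders.

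Induced dBigH1 peaks lay close to H1. Of the 12 and 16 induced peaks, 41.7% and 68.8% overlapped H1 peaks of their own replicate, against 10.9% and 16.7% in control cells (difference 41.4 points, exact permutation p = 0.333, groups without overlap). With scores of 100 or more, which left 1 peak in each induced list, the difference was 47.1 points and the groups overlapped (exact permutation p = 1). In H1-dense windows all 7 peaks of the second induced list and 4 of 6 of the first overlapped H1, against 3 of 12 and 6 of 17 in control cells. Outside the single peak in an H1-empty window, no induced dBigH1 peak was farther than 10.3 kb from an H1 peak of its own replicate. Set against the control H1 lists instead, 66.7% and 93.8% of the induced dBigH1 peaks overlapped H1, more than against the induced H1 lists.

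The one induced peak in an H1-empty window was weak. It lay at 7906331 to 7908217 in the first induced list, with a score of 54.7, rank 149 of 196, and no counterpart in the second. It was 3.11 kb from the isolated H1 peak of the second induced list at 7900709 to 7903225 (score 50.5), and 427 kb from any H1 peak of its own replicate.

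**Figure D4:**
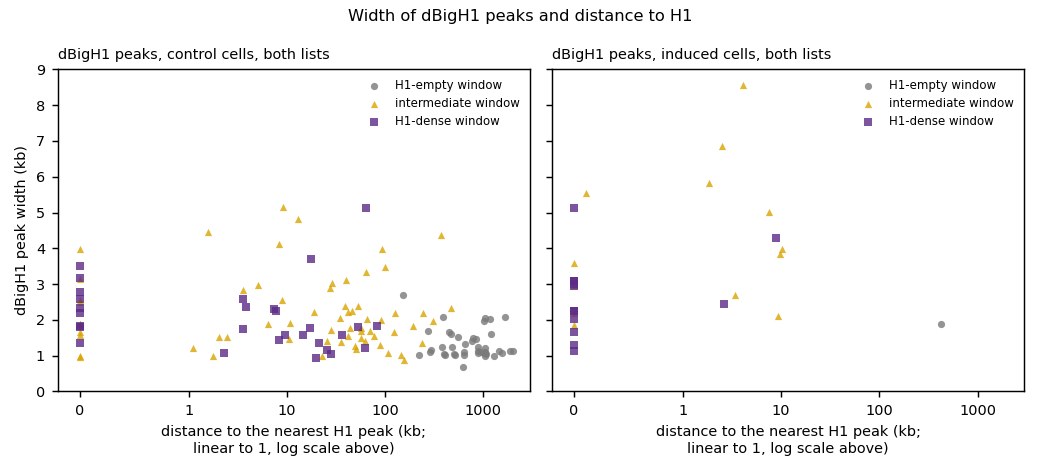
Width of each dBigH1 peak in kb (y axis) against its distance in kb to the nearest H1 peak of its own replicate (x axis, linear to 1 and log scale above), control left and induced right, both lists together; symbols give the H1 class of the window. Control peaks in H1-empty windows (grey) have median widths of 1148 and 1110 bp and lie at least 151 kb from H1, whereas all induced peaks but the one at 427 kb lie within 10.3 kb of an H1 peak. Distances by class follow in part from the choice of the classes by H1.

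Induced replicates shared few peaks. A single region, 1519128 to 1522153 (scores 66.3 and 79.9), was held by both induced lists and no control list, which was 0.840% of the 119 regions (background 2.45%). It overlapped an H1 peak in the second control list and both induced H1 lists, and the first control list had one 0.392 kb away. The region opened a cluster in the H1-bearing tip, between 1519128 and 1558636, with 2 and 4 induced dBigH1 peaks. The first control list had 0 dBigH1 peaks in this span and the second 1, the nearest 15.5 kb from the region. The span was drawn around the induced peaks, so a low control count inside it follows in part from that choice. The whole 250 kb window that holds the span had 2 and 2 control and 2 and 4 induced dBigH1 peaks. In the rest of the 14 Mb no induced peak overlapped one of the other induced list, even where both lists had peaks in the same window, as with 2 and 1 at 13.5 to 13.75 Mb and 1 and 3 at 13.75 to 14 Mb. Recurrence was therefore 8.33% and 6.25%, against 59.4% and 52.8% for control dBigH1 peaks. No dBigH1 region was held by all 4 lists (background 0.317%).

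Most induced dBigH1 peaks lay in the inner 5 Mb, with 9 of 12 and 11 of 16. Its last 3 windows, from 13.25 Mb on, held 1 and 2, then 2 and 1, then 1 and 3 induced peaks. Control cells had 2 and 3, then 4 and 3, then 2 and 6 in the same windows. The best-scoring were 13713703 to 13719237 in the first list (139, rank 6 of 196) and 11569129 to 11571368 in the second (114, rank 19 of 238). The first H1 peaks beyond the limit followed within a few kb, and the H1 count went from 11, 12, 9 and 13 in the last window inside to 15, 18, 12 and 15 in the first window outside. The dBigH1 counts there were 2, 6, 1 and 3 inside and 3, 2, 1 and 0 outside, lower outside in both replicate 2 lists and not in the replicate 1 lists.

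Of 588 merged H1 regions, 115 (19.6%; background 21.7%) were held by all 4 lists, 95 of them in H1-dense windows and 0 in H1-empty ones. Of all 588, 358 lay in H1-dense and 6 in H1-empty windows. The classes were chosen by H1 in all 4 lists, so this placement follows in part from that choice. The regions held by all 4 lists were led by 13937779 to 13948162 with scores of 525, 551, 273 and 475. Next came 13483810 to 13489728 (464, 288, 391 and 575), 13763087 to 13770613 (233, 511, 326 and 521), 11627192 to 11642871 (397, 431, 245 and 382) and 11576335 to 11587875 (247, 334, 425 and 557). All were 5919 to 15680 bp wide. Control dBigH1 peaks overlapped the second of these in both control lists, and a peak of the second induced dBigH1 list overlapped the first and the third. The third also overlapped a peak of the second control dBigH1 list.

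Regions held by 1 condition alone made up shares of the H1 regions near or below those over all chromosomes. Both control lists and no induced list held 13 H1 regions (2.21%; background 3.44%), and both induced and no control list 19 (3.23%; background 3.07%). The leading induced region, 12316252 to 12319122 (scores 170 and 297), had a control H1 peak 0.092 kb away. The next, 11408029 to 11413357, 1281588 to 1285786 and 11240798 to 11243212, had one within 0.698 to 1.2 kb, and 707888 to 712005 had one at 0.555 kb. The control regions were led by 13276012 to 13282391 (91.6 and 183), 1544331 to 1552907 (105 and 144), 12338463 to 12342128 (79.0 and 107), 623671 to 626576 (166 and 66.8) and 10082132 to 10084040 (67.1 and 120). Of these, 623671 to 626576 stood alone, 81.3 kb from any induced H1 peak, and the others had one within 1.16 to 14.5 kb.

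Beside the rest of 2L, from 14 Mb inward, both antibodies gave fewer peaks per Mb here. H1 rates were 0.379, 0.466, 0.4003 and 0.497 times those of the rest of the arm (mean log2 ratio -1.21 ± 0.182, SD, n = 4; exact sign-flip p = 0.125, the smallest that 4 lists allow). For dBigH1 the ratios were 0.483 and 0.369 in control and 0.142 and 0.137 in induced cells. The difference between conditions was -1.60 on the log2 scale (exact permutation p = 0.333, groups without overlap). Against 2R, 3L and 3R together, control dBigH1 rates were 1.16 and 1.06 times as high and induced rates 0.504 and 0.592 times. H1 rates were 0.650, 0.615, 0.719 and 0.602 times those of these arms, a smaller deficit than beside the rest of 2L.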

How the data were processed

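The authors deposited 1 peak list per immunoprecipitated library, with chromosome, start, end, name and score. FastQC, Bowtie 0.12.5, MACS 1.4.2 and build dm3 are named in the submitters' processing notes. Their settings and the caller's control were not given in the sources used here. The deposited score is the authors' value (lowest 50) and served for ranks and filters inside each list alone.

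From the lists, window counts, gaps, overlaps of 1 bp or more and merged regions were computed in Python (3.11.15) using SciPy 1.17.1 and NumPy 2.4.6. Starts are printed 1-based. Libraries were compared with exact two-sided permutation tests of mean values (log2 for numbers and lengths) and Benjamini-Hochberg adjustment over borders. Shares carry exact Clopper-Pearson intervals and rates exact Poisson intervals, which cover counting error only. A count of 0 allows up to 3 peaks. Sequencing depth is unknown.

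The named regions are the 5 with the lowest mean score rank per antibody and class, the H1 peaks at shared gap borders and every induced dBigH1 peak in an H1-empty window. The members, classes and limits were chosen with earlier results of these data known. The code was tested on simulated H1 lists, where it recovered 22 of 22 empty windows, 20 of 20 dense windows and 8 of 8 borders. The simulated peaks were almost evenly spaced, with no isolated peaks and no windows near the class limits. The test therefore checks the code and not borders that rest on single weak peaks. Alternatives covered score, list length, joined peaks, window size, start and limits, gap length, overlap, replicates left out and a replicate block. The labels give no batch.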

Additional observations from a re-analysis of the deposited data

How the results depend on the processing

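No test of 2 libraries against 2 could pass 0.05, so alternatives bear on size and direction. Of 170 alternative values, 126 kept their direction or size, 34 moved and 10 changed direction. A difference counted as kept unless its sign changed, however much its size changed. A count was kept if its ratio to the main count stayed within a fixed limit. The kept values include those of the replicate block, which could not change, so the tally does not measure how stable the sizes were. All 10 concerned differences within the replicate spread: the start of the first long gap (main -1.95 kb) became 70.5 kb with equal list lengths and 204 kb without isolated H1 peaks, its end -8.27 kb with equal list lengths, H1 gap length (log2) 0.0660 at a score of 100 or more and 0.00884 with gaps of 100 kb, and the H1 share of the list (main 0.148 points) -0.829 at a score of 100 or more and -0.127 with equal list lengths. With each replicate left out, these ranged from -6.90 to 2.996 kb (start), from -0.16 to 0.0134 (H1 gap length) and from -0.312 to 0.608 points (H1 share).

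Counts that moved were the stretches shared by all H1 lists, 25 with gaps of 100 kb and 3 without isolated peaks. Joining close peaks gave 8 control and 9 induced H1 regions, 7 H1-dense windows and 4 windows with more H1 in induced cells. A score of 100 or more gave 20 control and 0 induced dBigH1 regions, 3 H1-dense windows and 1 window with more H1. Equal list lengths gave 14 control dBigH1 regions and 1 window in each direction. Windows of 500 kb gave 11 empty, 4 dense and 0 with more H1; shorter windows, which are more numerous by construction, gave 47, 22 and 5, with 4 lower; shifted windows gave 0 with more H1. Requiring 20 H1 peaks left 3 dense windows. Leaving out a replicate gave 63 to 70 control and 11 to 14 induced dBigH1 regions, 129 to 136 and 127 to 146 H1 regions, and 13 to 16 windows higher and 15 to 16 lower, since 1 list then decides. Why the remaining counts moved was not tested.

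The replicate block leaves the differences unchanged by construction (dBigH1 log2 peak number -2.29, share in H1-empty windows -27.6 points, exact sign-flip p = 0.5). It changed no call. The dBigH1 peak number stayed between -5.00 and -1 on the log2 scale and the overlap with H1 between 30.7 and 52.1 points. At a score of 100 or more each induced dBigH1 list kept 1 peak here. A peak absent from a list of unknown depth does not show that the protein was absent.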

Other observations

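The highest dBigH1 score in the 14 Mb belonged to a peak at 10732964 to 10736664, which was found in the first control list alone. Its score of 3054 ranked 6 of 599 in that list. The nearest peak of the second control list was 28.9 kb away and the nearest induced dBigH1 peaks were 148 and 833 kb away. It lay in an H1-dense window and was 17.6 and 13.5 kb from the nearest control H1 peaks.

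The second control and the second induced H1 list covered the same length of the 14 Mb to the base pair, 1164631 bp, with 422 and 415 peaks. The complete lists shared 0 peaks with identical start and end.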
